A study of Mus musculus with 10 samples.

Results

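Nascent transcription was compared between CJ7_WT, the wild-type CJ7 culture, and EloA_WT, the wild-type culture used beside the Elongin A mutants, in mouse embryonic stem cells. The 4 libraries, 2 of each group, are part of 10 in the study. The 14736 genes compared were those with a mean intronic RPKM of 0.1 or more over the 3 columns, out of 24901 listed. RPKM is the number of reads in a gene's introns per kilobase of intron, scaled to the library's depth. Both CJ7_WT libraries are held in 1 pooled column, so CJ7_WT values have no error of their own, whereas each EloA_WT library has its column. The other groups carry an Elongin A whose residue K754, a lysine, was changed to methionine (EloA_K754M) or arginine (EloA_K754R), or lack the Polycomb subunit Eed (Eed_null, also 1 pooled column, named so in titles and columns although its genotype field reads EloA null).

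CJ7_WT has the labelled genotype wild type and EloA_WT the genotype EloA WT, and neither carries a stated mutation. All groups grew in serum medium with LIF, 1 µM of the MEK inhibitor PD0325901 and 3 µM of the GSK3 inhibitor CHIR99021. The growth protocol describes feeder fibroblasts that were depleted by plating and the extraction protocol describes feeder-free dishes. The field for the parental line reads CJ7 for CJ7_WT and CCE28 for EloA_WT, while the growth protocol names CJ7 for all samples. A difference between 2 stem cell lines and one between 2 cultures of 1 line can therefore not be told apart. Nothing in the labels says that libraries of a group came from separate cultures, so the gap between EloA_WT 1 and EloA_WT 2 may be technical.

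Embryonic stem cells are held in the naive pluripotent state by LIF, which signals through Stat3, and by the pair of kinase inhibitors, which block differentiation signals through ERK and stabilise beta-catenin. A network of transcription factors around Oct4 (Pou5f1), Nanog, Klf4 and Esrrb keeps its own genes active in this state. In Bru-seq, cells take up bromouridine for a short time (here 2 mM for 10 min) and RNA made in that time is pulled down by an antibody against the label, so that introns, which are soon spliced out and degraded, report ongoing synthesis more than stored RNA.

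RPKM are whole multiples of the value of 1 read, and whole reads could be recovered for 20815 of 20817 genes with 6 or more columns above 0. The depth this implies for the RPKM was 47972442 reads in the pooled CJ7_WT column, against 19292561 and 16291330 in EloA_WT 1 and 2. Intervals of read ratios below are exact 95% intervals from these reads, corrected for introns counted in several transcripts, and cover counting error only. The 12 markers of embryonic stem cells were all above the minimum, 3 of them called lower by the rule given below, with a summed RPKM of 210.1 in CJ7_WT and 252.2 and 273.8 in EloA_WT. Dppa5a alone held 16.9 RPKM of the CJ7_WT sum, against 61.1 and 75.9 in EloA_WT. Pou5f1, Dppa5a, Tdgf1, Fgf4 and Dppa4 lay below both EloA_WT values. Nanog, Klf4, Esrrb, Tfcp2l1, Utf1 and Tbx3 lay above both, and Zfp42 between them. The 14 fibroblast (feeder) markers summed to 7.69 RPKM in CJ7_WT, against 4.37 and 3.41 in EloA_WT, and 9.52 in Eed_null and 4.81 to 7.13 in the K754 libraries, with no marker at 0 in CJ7_WT and 1 of the 14 at 0 in EloA_WT 1. Col1a1 alone held 3.13 RPKM of the CJ7_WT sum, against 0.714 and 0.578 in EloA_WT. Summed RPKM of markers of primitive endoderm, trophectoderm, neuroectoderm and mesoderm were 6.89, 1.73, 0.765 and 0.406 in CJ7_WT. They were 5.68 and 6.24, 2.07 and 2.20, 1.27 and 0.815, and 0.453 and 0.585 in EloA_WT. Cdx2, which defines trophectoderm, was at 0 in CJ7_WT, against 0.012 and 0.029 RPKM in EloA_WT. T, which defines mesoderm, was at 0 in CJ7_WT, against 0.054 and 0.032 in EloA_WT. Both genes were thus under 0.1 RPKM in all 3 columns. In bulk RNA, fewer cells of a type and less RNA per cell cannot be told apart.

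The shared programme was large. Of the 14736 genes, 83.2% lay within 2-fold of the EloA_WT mean in CJ7_WT, and for 17.1% the CJ7_WT value fell between the EloA_WT values. Values are compared as log2(RPKM + 0.1), on which Pearson's r across genes was 0.87 between CJ7_WT and either EloA_WT library and 0.94 between the EloA_WT libraries. Spearman's rho was 0.88 in both cases for CJ7_WT and 0.96 between the EloA_WT libraries. Genes are not independent replicates, and these values are a description. The median absolute log2 difference was 0.45 between CJ7_WT and the EloA_WT mean, against 0.22 between EloA_WT 1 and 2. More than 2-fold lay between the EloA_WT libraries at 4.58% of genes.

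A gene was called where CJ7_WT lay beyond both EloA_WT values by more than the gap between them and at least 2-fold from their mean. This rule gives no p. It called 380 genes higher in CJ7_WT (2.58% of those compared) and 1787 lower (12.1%). Of the 380, 91 had an EloA_WT mean under 0.1 RPKM and so passed the minimum only through their CJ7_WT level. Near the threshold, Mad2l1bp was just called at 1.0002 and Zfp385a just missed at 0.99886, and on the lower side Gng13 was called at -1.0007 and Ctsc missed at -0.99998. As an alternative with a test, limma was fitted over the 6 single libraries and the CJ7_WT column, on the assumption that the pooled column varies like 1 library. At a Benjamini-Hochberg adjusted p under 0.05 limma called 388 genes higher (2.63%) and 1683 lower (11.4%), of which 217 and 1165 were also called by the rule. Libraries with the same replicate number deviated together only weakly, with r between 0.151 and 0.193 across genes. Limma with the replicate number as a block, added after the data were seen, had 2 residual degrees of freedom. It called 971 genes higher (6.59%) and 3020 lower (20.5%), of which 292 and 1527 were also called by the rule. Without EloA_WT replicate 1, 630 genes were 2-fold or more higher and 1800 lower, and without EloA_WT replicate 2, 466 were higher and 2384 lower, in both cases with no gap to pass.

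**Figure D1:**
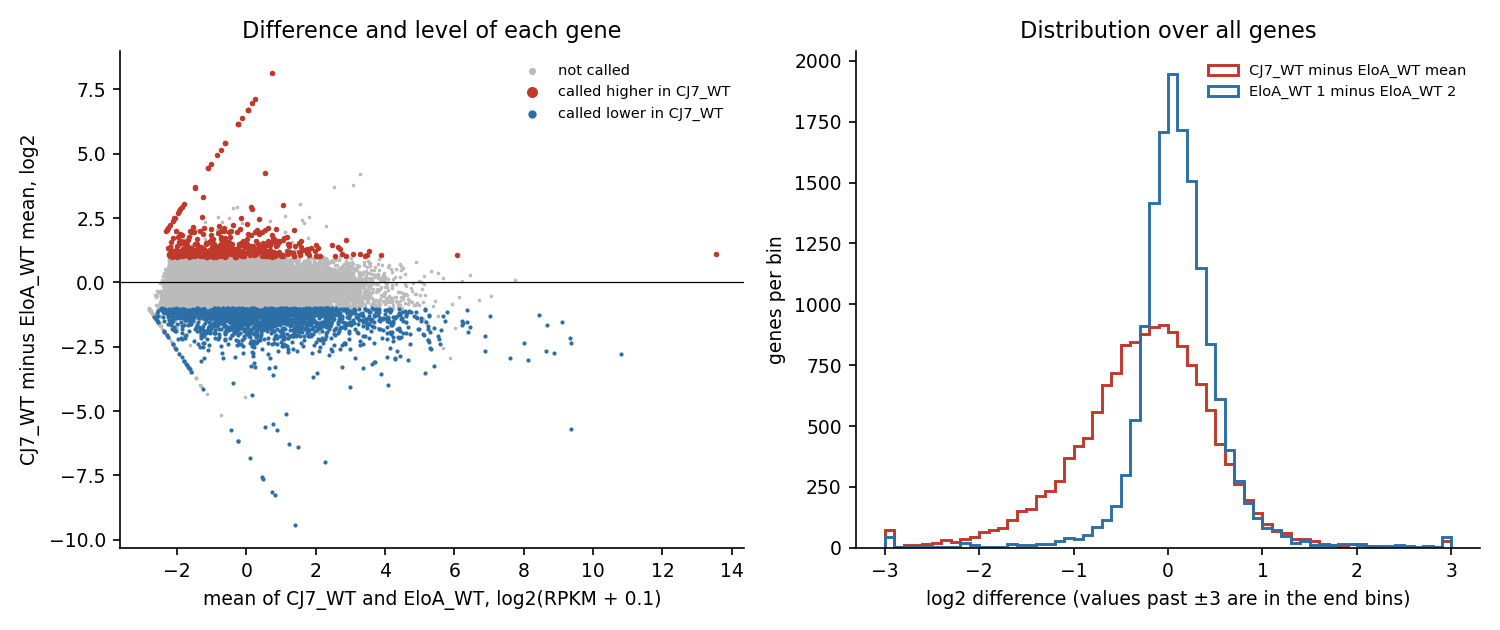
The left plot shows, for each of 14736 genes, the CJ7_WT minus EloA_WT difference (log2) against the mean level in log2(RPKM + 0.1), with 380 genes called higher in CJ7_WT in red and 1787 called lower in blue. The right plot shows the number of genes in bins of that difference (red) and of EloA_WT 1 minus EloA_WT 2 (blue), and the red curve is wider and reaches further to the left.

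The excess of lower calls went with intron length. Intron bases are the lengths that the RPKM steps imply, in which an intron of several transcripts can count more than once. The median log2 difference was -0.20 over all genes, and it ran from -0.73 in the decile of genes with the least intron to 0.20 in the decile with the most. In the shortest decile the median level was 0.651 RPKM in CJ7_WT, against 1.20 and 1.00 in EloA_WT, and 31.2% of genes were called lower. In the longest decile it was 1.11 RPKM in CJ7_WT, against 1.01 and 0.872 in EloA_WT, and 0.611% were called lower. The decile medians of EloA_WT 1 minus EloA_WT 2 stayed between 0.04 and 0.18. Genes called lower had a median of 3371 intron bases and genes called higher 9018, against 19119 over all genes. Within a column, the median log2 level of the longest decile minus that of the shortest was 0.69 in CJ7_WT, against -0.23 and -0.18 in EloA_WT. The same difference was 0.57 in Eed_null, the other pooled column, and lay between -0.15 and 0.33 in the K754 libraries.

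The size of the excess of lower calls depended on this trend and on the scaling. When each column was centred on its median in 50 bins of intron length, an alternative added after the data were seen, 785 genes were called higher (5.33%) and 756 lower (5.13%), with an overall median of -0.03. Of the original calls 343 higher and 739 lower remained, and 0 changed direction. The share of calls that were higher was 17.5% with RPKM as deposited, 50.9% with the length trend removed, 41.3% with equal column medians and 43.9% with quantile normalization. Equal medians moved the median of all genes to 0.04. Differences below are therefore given beside the all-gene median of -0.20 and with the length trend removed. The part of library preparation or pooling in the trend was not tested.

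**Figure D2:**
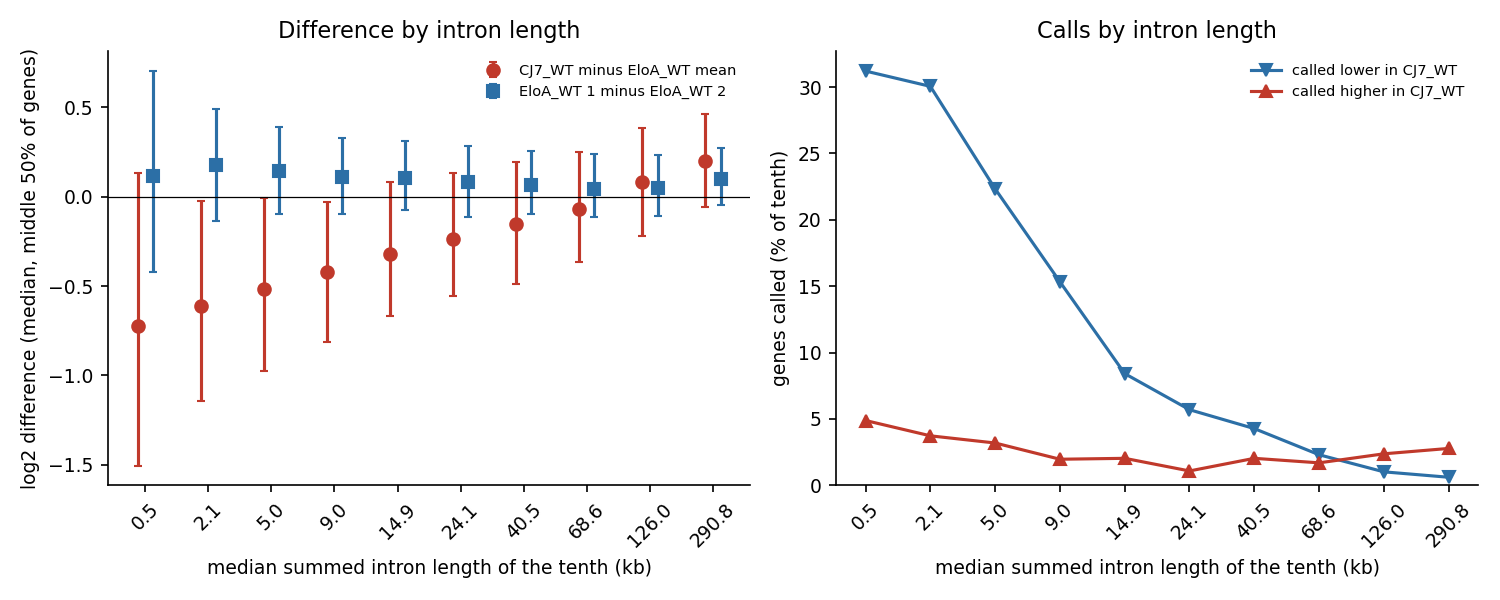
The left plot gives the median and the middle 50% of genes of the log2 difference for CJ7_WT minus EloA_WT (red circles) and EloA_WT 1 minus EloA_WT 2 (blue squares) in deciles of summed intron length, labelled by their median in kb. The right plot gives the percentage of genes called, and lower calls drop from 31.2% in the shortest decile to 0.611% in the longest.

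The naive pluripotency network was active in both cultures, and its members differed in both directions. Zfp42 (Rex1), a marker of the naive state and among the 10 genes with the highest shared levels, had 75.7 RPKM in CJ7_WT, against 69.7 and 78.2 in EloA_WT. The CJ7_WT value lay between the EloA_WT values. Nanog, a core factor, had 39.1 RPKM in CJ7_WT, against 21.5 and 24.0 in EloA_WT. CJ7_WT was above both by more than their gap, yet at a log2 difference of 0.78 it missed 2-fold, and it was called with the length trend removed (1.17) and by limma (adjusted p = 0.0437). Tet1, which oxidises 5-methylcytosine, had 15.8 RPKM in CJ7_WT, against 6.86 and 8.38 in EloA_WT, and was the 1 member of 34 called higher (log2 difference 1.05, limma adjusted p = 0.0326). That call ended with the length trend removed (0.83) and against EloA_WT 2 alone (0.91). Esrrb had 6.85 RPKM in CJ7_WT, against 5.23 and 5.48 in EloA_WT, and Klf4 6.31 in CJ7_WT, against 5.69 and 4.66 in EloA_WT. Both were above the EloA_WT values without reaching 2-fold.

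Of the 34 members tested, the rule called 1 higher and 8 lower, shares to be read against 2.58% and 12.1% of all genes. With the length trend removed it called 1 higher and 3 lower. Limma called 2 higher and 2 lower, and 3 and 13 with the replicate block. Pou5f1, encoding Oct4, had 7.45 RPKM in CJ7_WT, against 19.2 and 24.7 in EloA_WT (log2 difference -1.54, read ratio 0.343 with interval 0.316 to 0.371). It has 2489 intron bases, its limma adjusted p was 0.0559, or 0.0173 with the replicate block, and with the length trend removed the difference was -0.95 and not called. Dppa5a, an RNA-binding protein of pluripotent cells, had 16.9 RPKM in CJ7_WT, against 61.1 and 75.9 in EloA_WT (limma adjusted p = 0.0979, or 0.0474 with the replicate block). Spp1, encoding the secreted protein osteopontin, had 5.63 RPKM in CJ7_WT, against 20.8 and 16.5 in EloA_WT. Both stayed called with the length trend removed, at -1.20 and -1.15. Klf2 had 10.2 RPKM in CJ7_WT, against 31.4 and 18.8 in EloA_WT. Fgf4, the signal that starts differentiation, had 6.53 in CJ7_WT, against 24.6 and 12.9 in EloA_WT. The calls of Klf2 and Fgf4 ended with the length trend removed. Zfp281, a zinc finger regulator, rested on 1 read in CJ7_WT and 20 in EloA_WT over 217 intron bases. The list median was -0.34, turned to 0.11 with quantile normalization and was -0.18 with the length trend removed, beside -0.20 and -0.03 for all genes.

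**Figure D3:**
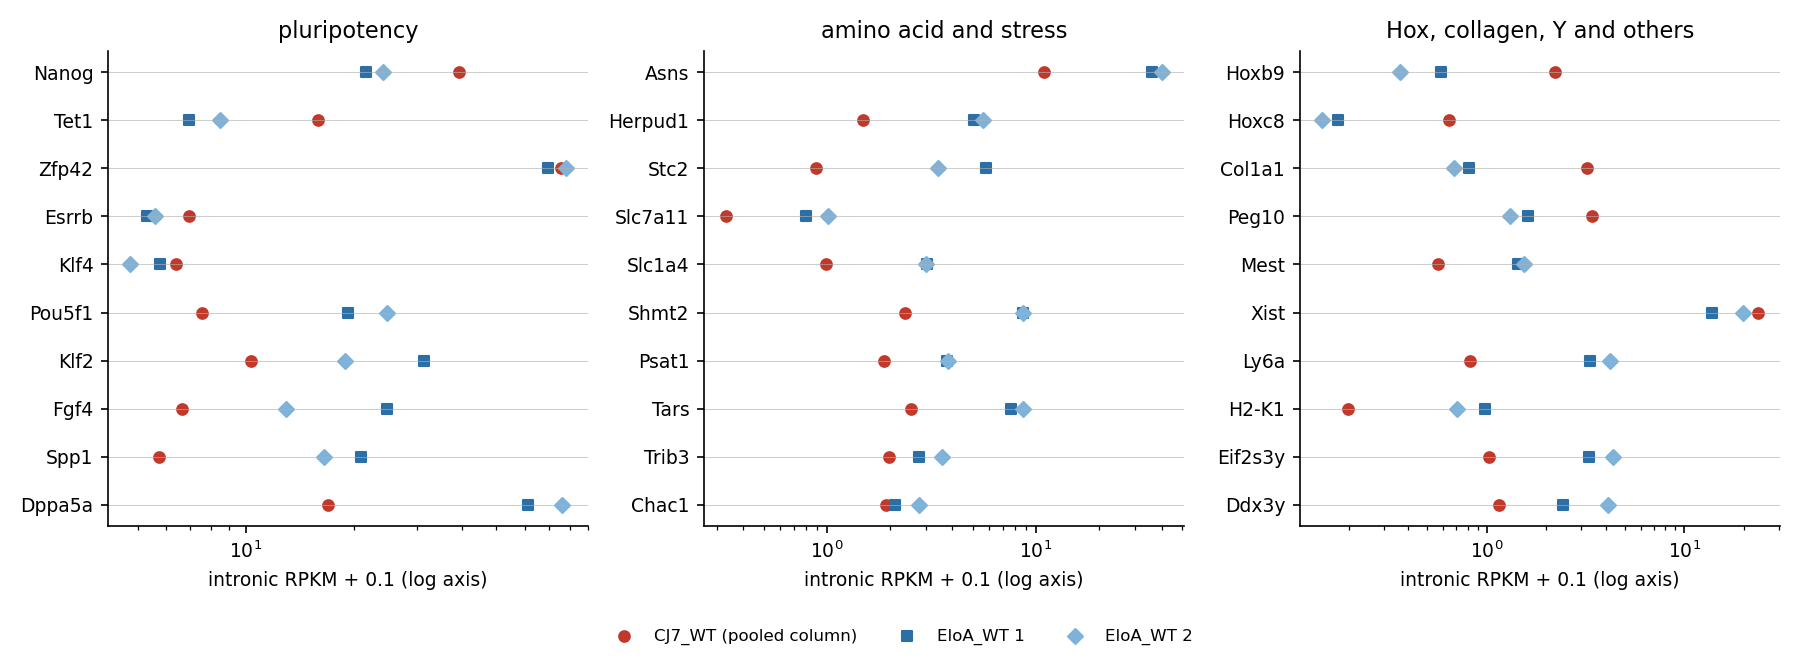
Intronic RPKM plus 0.1 (log axis) of 30 genes in pooled CJ7_WT (red circles), EloA_WT 1 (dark blue squares) and EloA_WT 2 (light blue diamonds). Nanog and Tet1 lie to the right of both EloA_WT values and Pou5f1 and Dppa5a to the left, Zfp42 falls between them, and Asns, Herpud1, Shmt2 and Tars lie to the left of both.

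Of the genes of amino acid supply and of the ATF4 stress response, some were called lower in CJ7_WT and most were not called. ATF4 is a transcription factor made when amino acids run short or the endoplasmic reticulum is stressed, and it drives amino acid synthesis, import and tRNA charging. Of 24 tested genes of the ATF4 list 10 were called lower and 0 higher, with a median of -1.08. With the length trend removed 7 were lower and the median was -0.55. The shares over all genes were 12.1% lower and 2.58% higher as deposited. With the trend removed they were 5.13% lower and 5.33% higher, and these shares apply to each list below. The serine and one-carbon enzymes had 6 of 23 lower and a median of -0.60 (4 and -0.44 with the trend removed), the amino acid transporters 3 of 16 and -0.49 (3 and -0.45), and the tRNA synthetases 4 of 20 and -0.61 (2 and -0.44). Among the 45 tested genes of these 4 lists with 20000 intron bases or more, a division made after the data were seen, 8 were called lower (17.8%), against 2.72% of all genes of that length. The lists were chosen with earlier results of these data known, so these shares are a description and no test. The rule called no member of the 4 lists higher, although limma called 1 transporter higher, and 4 genes stand on 2 of the lists. Each median stayed below 0 with equal column medians and with quantile normalization.

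The promoters of some targets are shown because ATF4 reads a short DNA element there. RefSeq promoter sequences (GRCm38.p6, 250 bases before to 50 after the start) were searched on both strands for TGATGNAA, the core of the element that ATF4 reads with C/EBP partners. The motif stood in 3.97% of 32851 promoters. Of 79 tested genes on the 4 lists 62 had a promoter in the table, and 19 of these (30.6%) held the motif in at least 1, among them 8 of 16 genes called lower and 11 of 46 others. The 3.97% counts single promoters, whereas the 30.6% counts genes with a match in any of their promoters. The lists also hold known targets of ATF4, so setting these shares side by side is no test. A match is a description of the sequence, not a bound site. Asns (chr6:7693160-7693459, minus strand), Slc7a11 (chr3:50443564-50443863, minus strand) and Herpud1 (chr8:94386179-94386478, plus strand) are shown as genes called lower, and Chac1 (chr2:119350992-119351291, plus strand) as a target of ATF4 that was not called. Capitals mark the motif on either strand, 5′ to 3′ along the gene.
Asns: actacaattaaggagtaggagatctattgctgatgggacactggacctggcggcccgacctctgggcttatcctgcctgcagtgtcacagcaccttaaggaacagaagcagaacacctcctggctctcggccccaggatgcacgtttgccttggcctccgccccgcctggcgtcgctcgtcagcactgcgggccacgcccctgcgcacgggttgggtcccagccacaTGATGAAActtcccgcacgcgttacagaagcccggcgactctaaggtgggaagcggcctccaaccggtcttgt
Slc7a11: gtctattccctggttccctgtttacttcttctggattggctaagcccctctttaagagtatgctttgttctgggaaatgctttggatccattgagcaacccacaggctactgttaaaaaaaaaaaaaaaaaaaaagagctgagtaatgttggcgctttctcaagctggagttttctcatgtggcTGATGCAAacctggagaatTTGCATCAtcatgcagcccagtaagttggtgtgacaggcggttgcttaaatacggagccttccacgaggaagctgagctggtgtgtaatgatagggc
Herpud1: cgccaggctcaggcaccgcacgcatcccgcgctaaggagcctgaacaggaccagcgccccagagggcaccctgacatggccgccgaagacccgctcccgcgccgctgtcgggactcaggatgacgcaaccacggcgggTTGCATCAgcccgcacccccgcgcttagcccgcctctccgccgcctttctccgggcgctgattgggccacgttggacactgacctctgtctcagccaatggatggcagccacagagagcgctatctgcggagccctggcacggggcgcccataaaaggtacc
Chac1: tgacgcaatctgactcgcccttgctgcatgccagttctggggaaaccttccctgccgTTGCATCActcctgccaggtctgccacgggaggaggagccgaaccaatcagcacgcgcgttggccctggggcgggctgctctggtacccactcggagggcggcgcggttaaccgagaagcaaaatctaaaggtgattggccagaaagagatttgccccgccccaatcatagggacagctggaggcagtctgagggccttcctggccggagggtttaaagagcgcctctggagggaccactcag

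Asns, which makes asparagine, had 10.8 RPKM in CJ7_WT, against 35.8 and 40.1 in EloA_WT. The log2 difference was -1.80 and limma gave an adjusted p of 0.0189. The read ratio was 0.286 (0.279 to 0.293) over 30726 intron bases, and with the length trend removed Asns lay at -1.57 and stayed called. Its level was 10.0 RPKM in Eed_null, 30.0 and 24.4 in EloA_K754M, and 20.0 and 25.4 in EloA_K754R. CJ7_WT and Eed_null were thus the lowest columns for this gene.

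Herpud1, a protein of endoplasmic reticulum quality control, had 1.39 RPKM in CJ7_WT, against 4.94 and 5.50 in EloA_WT (log2 difference -1.83, limma adjusted p = 0.0188). Slc7a11, the cystine importer, had 0.230 RPKM in CJ7_WT, against 0.699 and 0.918 in EloA_WT. Its 134888 intron bases are the most among the called members, and it lay at -1.45, or -1.55 with the length trend removed. Limma gave an adjusted p of 0.0836, or 0.0253 with the replicate block. Stc2, the secreted glycoprotein stanniocalcin 2, had 0.793 RPKM in CJ7_WT, against 5.68 and 3.33 in EloA_WT, the largest difference of the list at -2.32 (limma adjusted p = 0.0561, or 0.0253 with the replicate block). Across the K754 libraries and Eed_null, Herpud1 had 0.811 to 2.04 RPKM, Slc7a11 0.0192 to 0.123 and Stc2 0.227 to 0.820. EloA_WT was thus the high group among all columns for Herpud1, Slc7a11 and Stc2. The remaining called members were Nupr1, Gdf15, Atf4 itself, Xbp1, Atf5 and Vldlr. For Atf4 the values were 4.50 RPKM in CJ7_WT, against 17.1 and 12.1 in EloA_WT, a call that ended with the length trend removed (-0.87).

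Other genes of the same response were not called. Chac1, which degrades glutathione, had 1.83 RPKM in CJ7_WT, against 2.01 and 2.67 in EloA_WT, and Trib3, a pseudokinase that holds ATF4 back, 1.89 in CJ7_WT, against 2.66 and 3.47 in EloA_WT. Both lay below the EloA_WT values without reaching 2-fold. Sesn2, a sensor of leucine, had 6.67 RPKM in CJ7_WT, against 6.87 and 6.55 in EloA_WT, and Cth, the last enzyme of cysteine synthesis, 6.18 in CJ7_WT, against 5.21 and 5.38 in EloA_WT. Hspa5, the main chaperone of the endoplasmic reticulum, had 7.50 RPKM in CJ7_WT, against 17.0 and 39.1 in EloA_WT, and was not called because the EloA_WT libraries differed by 1.20 on the log2 scale.

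In the serine pathway, Shmt2, the mitochondrial enzyme that takes a carbon unit from serine, had 2.26 RPKM in CJ7_WT, against 8.58 and 8.57 in EloA_WT. The log2 difference was -1.88 (limma adjusted p = 0.0164). Shmt2 had 2.34 RPKM in Eed_null, 3.77 and 3.90 in EloA_K754M and 4.36 and 3.06 in EloA_K754R, so EloA_WT was the high group among all columns. Psat1, the second enzyme of serine synthesis, had 1.78 RPKM in CJ7_WT, against 3.67 and 3.69 in EloA_WT. Phgdh, the first enzyme, had 1.44 RPKM in CJ7_WT, against 2.68 and 2.43 in EloA_WT, which falls short of 2-fold at -0.79. Mthfd1, the cytosolic folate enzyme, was not lower, with 6.08 RPKM in CJ7_WT, against 4.49 and 4.77 in EloA_WT.

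Among transporters, Slc1a4, which carries neutral amino acids, had 0.894 RPKM in CJ7_WT, against 2.93 and 2.89 in EloA_WT. It had 0.760 in Eed_null, 0.465 and 0.372 in EloA_K754M, and 0.355 and 0.301 in EloA_K754R, so that EloA_WT was the high group among all columns. Slc7a3, a transporter of cationic amino acids, had 4.13 RPKM in CJ7_WT, against 9.76 and 12.2 in EloA_WT. Among the synthetases, Tars had 2.44 RPKM in CJ7_WT, against 7.56 and 8.63 in EloA_WT (log2 difference -1.68, limma adjusted p = 0.0140), and Nars had 4.69 in CJ7_WT, against 11.2 and 13.6 in EloA_WT. Rars and Qars were called as well, but not with the length trend removed. Eprs, Iars and Vars lay between 0.23 and -0.16.

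Ribosomal protein genes had the lowest median of the 33 lists. Of 41 tested, 33 were called lower and 0 higher, with a median of -1.50. Their introns are short, with a median of 2608 bases, and with the length trend removed 21 were lower and the median was -1.01. Their summed RPKM was 479.5 in CJ7_WT, against 1502 and 1390 in EloA_WT. Rps9 had 17.2 RPKM in CJ7_WT, against 80.9 and 91.4 in EloA_WT, the largest difference at -2.31. Rpl7a (7.88 in CJ7_WT, against 11.8 and 13.4 in EloA_WT) and Rps24 (22.8 in CJ7_WT, against 39.8 and 39.3 in EloA_WT) were not called, and Rpl24 lay above both EloA_WT values, at 6.22 in CJ7_WT, against 5.59 and 5.92 in EloA_WT. With quantile normalization, which aligns these very high values, the median was -0.69.

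Other housekeeping lists also had negative medians, with lower shares of calls than the ribosomal proteins. Oxidative phosphorylation had 8 of 25 lower and a median of -0.81 (5 and -0.45 with the length trend removed). Its lowest member was Cox5b, a subunit of complex IV, with 0.811 RPKM in CJ7_WT, against 5.43 and 4.09 in EloA_WT, while Cox5a of the same complex had 8.65 in CJ7_WT, against 5.99 and 6.36 in EloA_WT. Glycolysis and hypoxia genes had 6 of 24 lower and a median of -0.61 (4 lower, 1 higher and -0.53). Aldoa had 5.09 RPKM in CJ7_WT, against 20.5 and 23.5 in EloA_WT. The median gap between the EloA_WT libraries in this list was 0.85, with EloA_WT 1 the higher, and replicate 1 also had the higher summed RPKM of these genes in EloA_K754M and EloA_K754R. The list median was -1.26 against EloA_WT 1 and -0.16 against EloA_WT 2. The value for glycolysis thus depended on which EloA_WT library was taken. Cell cycle genes had 6 of 36 lower (16.7%) and a median of -0.44, and 2 lower and -0.20 with the trend removed, near the 12.1% and 5.13% of all genes. They included Pcna, the sliding clamp of DNA replication, at 5.29 RPKM in CJ7_WT, against 17.4 and 15.1 in EloA_WT, while Plk1, a mitotic kinase, was at 1.70 in CJ7_WT, against 1.72 and 1.70 in EloA_WT. NRF2 and heat shock genes had 5 of 22 lower, led by the co-chaperone Dnajb1 with 1.21 RPKM in CJ7_WT, against 5.68 and 5.31 in EloA_WT, and a median of -0.51 that turned to 0.04 with quantile normalization.

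**Figure D4:**
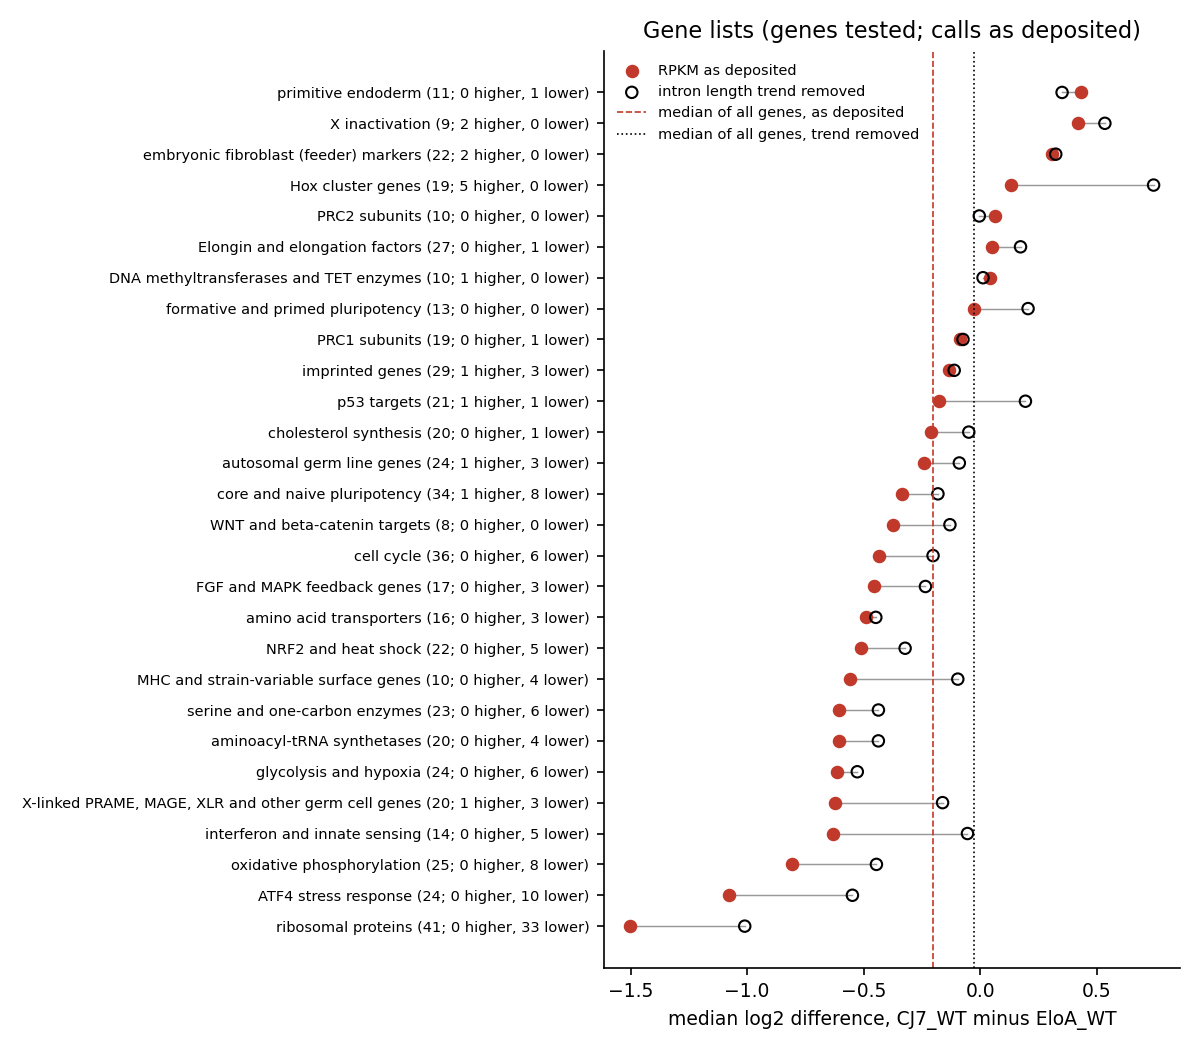
Median log2 difference, CJ7_WT minus EloA_WT, of each list with 8 or more genes tested (number tested and calls in brackets), with RPKM as deposited (red) and with the intron length trend removed (open circles). Dashed and dotted lines are the medians of all genes, -0.20 and -0.03, and ribosomal proteins lie lowest at -1.50 and -1.01.

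The largest differences on the higher side fell in genes of varied function. Among 163 that were called higher with 0.5 RPKM and 20 reads or more in the higher group, the 15 with the largest differences lay between 1.78 and 2.54 on the log2 scale. All 15 stayed called with the length trend removed, and limma's adjusted p was under 0.05 for 14 of them, with a range of 0.0140 to 0.0612, and for all 15 with the replicate block. Apol8, of the apolipoprotein L family, had 0.894 RPKM in CJ7_WT, against 0.0543 and 0.0901 in EloA_WT. This is 267 reads in CJ7_WT and 15 in EloA_WT, and a read ratio of 13.2 (7.86 to 23.9) at equal depth. S100a13, a calcium-binding protein, had 1.55 RPKM in CJ7_WT, against 0.231 and 0.273 in EloA_WT, and Muc6, a mucin, 1.14 in CJ7_WT, against 0.151 and 0.198 in EloA_WT. Eed_null had 0.716, 1.25 and 0.951 RPKM for these genes, so the pooled columns were the high ones.

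Tmem132d, a membrane protein of neurons with 1341610 summed intron bases, behaved differently. It had 0.622 RPKM in CJ7_WT, against 0.0393 and 0.0903 in EloA_WT, and 0.0406 in Eed_null. CJ7_WT was the high column among all 8. Usp26, an X-linked ubiquitin protease of germ cells, had 2.41 RPKM in CJ7_WT, against 0.641 and 0.415 in EloA_WT, 0.138 and 0.160 in EloA_K754M and 2.91 and 2.30 in EloA_K754R. Pygm, muscle glycogen phosphorylase, had 1.10 RPKM in CJ7_WT, against 0.200 and 0.203 in EloA_WT. Col18a1, a basement membrane collagen with 214786 summed intron bases, had 2.63 RPKM in CJ7_WT, against 0.490 and 0.718 in EloA_WT. Eif4g3, a translation initiation factor, had 1.02 RPKM in CJ7_WT, against 0.234 and 0.216 in EloA_WT. The remaining genes of the 15 were Hoxb9, Col1a1, Fam24a, Lat2, Adamtsl4, Slc25a47 and Fxyd4. Apol8, Tmem132d and Lat2 had an EloA_WT mean under 0.1 RPKM and passed the minimum through their CJ7_WT level alone.

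Fibroblast genes had 2 of 22 members called higher (9.09%, against 2.58% of all genes) and 0 lower. Their median was 0.31, or 0.32 with the length trend removed. Col1a1, the main chain of type I collagen, had 3.13 RPKM in CJ7_WT, against 0.714 and 0.578 in EloA_WT (log2 difference 2.12, limma adjusted p = 0.0324). Col1a2, its partner chain, had 1.27 RPKM in CJ7_WT, against 0.873 and 0.531 in EloA_WT. Col3a1 had 0.287 RPKM in CJ7_WT, against 0.448 and 0.286 in EloA_WT, and Postn 0.156 in CJ7_WT, against 0.253 and 0.239 in EloA_WT. Col3a1 lay between the EloA_WT values and Postn below both, and neither was called. The part of residual feeder cells in these values was not tested.

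Hox genes, which give cells their position along the body axis and are kept silent by Polycomb in stem cells, differed widely in level. Of 39 genes 19 passed the minimum, and the rule called 5 of them higher (26.3%, against 2.58% of all genes) and 0 lower. Hoxc8, Hoxc9 and Hoxc10 are 3 of these 5 and passed through their CJ7_WT level alone, with an EloA_WT mean under 0.1 RPKM, so the count supports nothing about the family. Hoxb9 had 2.12 RPKM in CJ7_WT, against 0.485 and 0.263 in EloA_WT, with 260 and 33 reads (ratio 5.84, 4.06 to 8.67). The other 4 called genes lie in the HoxC cluster. Hoxc10 had 0.320 RPKM in CJ7_WT, against 0.0325 and 0.0192 in EloA_WT, and Hoxc9 0.405 in CJ7_WT, against 0.0831 and 0.0591 in EloA_WT. Hoxc8 had 0.541 RPKM in CJ7_WT, against 0.0769 and 0.0455 in EloA_WT, on 17 and 2 reads, and Hoxc11 had 0.462 in CJ7_WT, against 0.205 and 0.146 in EloA_WT. Their neighbours Hoxc12 and Hoxc13, with 2.46 and 1.02 RPKM in CJ7_WT, 2.71 and 0.928 in EloA_WT 1, and 2.54 and 0.923 in EloA_WT 2, differed by no more than 0.13. Eed_null, which lacks a Polycomb subunit, had 1.33 RPKM for Hoxb9, 0.563 for Hoxc10, 0.824 for Hoxc9 and 0.796 for Hoxc8. EloA_K754M had 0.170 and 0.166 RPKM for Hoxc10, 0.229 and 0.170 for Hoxc9, and 0.101 and 0.197 for Hoxc8. In EloA_K754R these were 0.387 and 0.216, 0.396 and 0.310, and 0.412 and 0.102. EloA_WT was thus the low group among all columns for Hoxc8, Hoxc9 and Hoxc10. Hoxb9 had 0.258 to 0.661 RPKM in the K754 libraries, which overlaps EloA_WT.

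Among genes of the Polycomb and Elongin machinery few were called. Of 10 PRC2 subunit genes the rule called 0, or 1 higher with the length trend removed, and limma with the replicate block called 1 higher. Their median was 0.06, turned to -0.03 without EloA_WT replicate 1, and was 0.80 with quantile normalization. Ezh2, the methyltransferase, had 5.09 RPKM in CJ7_WT, against 5.40 and 5.15 in EloA_WT, Suz12 15.6 in CJ7_WT, against 12.4 and 15.3 in EloA_WT, and Eed 10.0 in CJ7_WT, against 10.6 and 14.9 in EloA_WT. Of 19 PRC1 genes the rule called Cbx2 lower, with 0.339 RPKM in CJ7_WT, against 1.96 and 0.938 in EloA_WT, a call that ended with the length trend removed (-1.18). Limma called 1 PRC1 gene higher and 3 lower. Tceb3, which encodes Elongin A, had 1.51 RPKM in CJ7_WT, against 1.83 and 2.03 in EloA_WT, a log2 difference of -0.34 that limma did not call (adjusted p = 0.324, or 0.128 with the replicate block). Of 27 elongation genes the rule called 1, the histone chaperone subunit Ssrp1 with 3.20 RPKM in CJ7_WT, against 6.83 and 8.45 in EloA_WT, and not with the length trend removed. A p that misses the threshold does not show equal levels.

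The 15 largest lower differences ran from -2.66 to -4.07 and all lay in genes with 94 to 1562 intron bases. They included Nop10, a subunit of the box H/ACA snoRNP, with 1.85 RPKM in CJ7_WT, against 28.8 and 37.2 in EloA_WT on 20 and 272 reads. Psmb6, a proteasome subunit, had 5.99 RPKM in CJ7_WT, against 39.4 and 50.7 in EloA_WT. Id3, an inhibitor of differentiation factors, had 0.797 RPKM in CJ7_WT, against 4.73 and 7.04 in EloA_WT. Myl7, an atrial myosin light chain, had 0 RPKM in CJ7_WT, against 0.830 and 0.511 in EloA_WT on 36 reads in all. The mitochondrial genes Mrpl36, Mrpl34, Timm13 and Aurkaip1 were also among them. All 15 stayed called with the length trend removed, and limma's adjusted p was under 0.05 for 13, or for all 15 with the replicate block. Reads behind them ranged from 1 in CJ7_WT and 20 in EloA_WT for Zfp281 to 308 in CJ7_WT and 1865 in EloA_WT for Rpl7a-ps12.

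A further set, chosen after its values were seen, was the 121 genes called lower with 20000 or more summed intron bases. Introns counted in several transcripts add to this length, so not all of them carry 20000 bases of distinct intron. The largest differences fell in genes of varied function. Zfp110, a zinc finger gene, had 1.68 RPKM in CJ7_WT, against 6.53 and 6.08 in EloA_WT (limma adjusted p = 0.0164). Aspa, which cleaves N-acetylaspartate, had 1.62 RPKM in CJ7_WT, against 6.12 and 5.66 in EloA_WT, and 0.838 and 1.05 in EloA_K754M, 0.427 and 0.726 in EloA_K754R and 0.856 in Eed_null. Fetub, a secreted protease inhibitor, had 0.225 RPKM in CJ7_WT, against 0.849 and 0.967 in EloA_WT, and between 0.105 and 0.208 in the other 5 columns. For Aspa and Fetub, EloA_WT was the high group among all columns. Tdrd12, a component of the piRNA pathway, had 1.10 RPKM in CJ7_WT, against 2.85 and 4.06 in EloA_WT.

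By chromosome, most medians lay between -0.12 and -0.29, and the exceptions were chromosomes 1, 11, 14, X and Y. Chromosome 11 was lowest among the autosomes, with a median of -0.45 over 1312 genes and 19.7% called lower. With the length trend removed it was -0.22. Relative to the length-centred middle of its own column, chromosome 11 lay at 0.19 in CJ7_WT and at 0.43 and 0.35 in EloA_WT. The same quantity was 0.09 in Eed_null and between -0.05 and 0.02 in the K754 libraries, so EloA_WT was the high group on this chromosome. Without chromosome 11, 351 genes were called higher and 1528 lower. Slc1a4, Stc2, Aspa and Xbp1 are on chromosome 11, whereas Asns, Herpud1 and Slc7a11 are not. The X chromosome had the highest median, 0.09 over 495 genes and 0.26 with the length trend removed, with 22 genes higher and 37 lower. The number of copies of either chromosome was not tested.

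**Figure D5:**
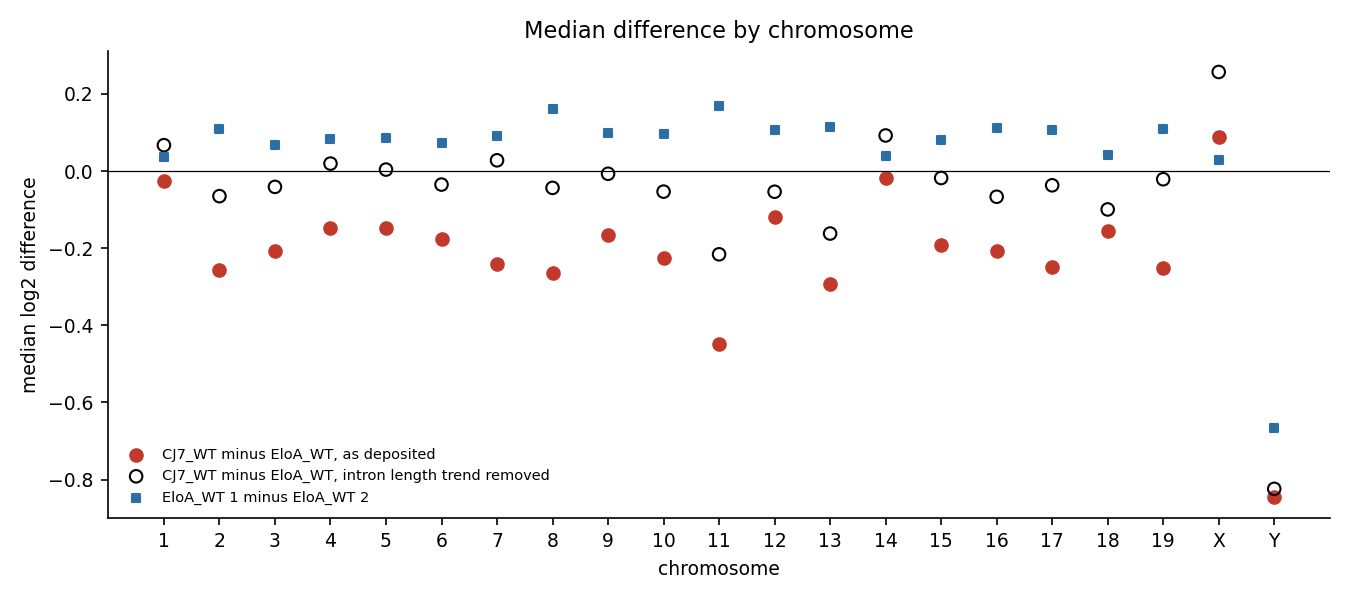
Median log2 difference by chromosome, CJ7_WT minus EloA_WT as deposited (red) and with the intron length trend removed (open circles), and EloA_WT 1 minus EloA_WT 2 (blue squares). Chromosome 11 lies at -0.45 and -0.22, the X chromosome at 0.09 and 0.26, and the Y chromosome, with 6 genes, at -0.84 and -0.82.

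The 6 tested genes of the Y chromosome were all lower in CJ7_WT than the EloA_WT mean. Eif2s3y, a translation factor, had 0.930 RPKM in CJ7_WT, against 3.19 and 4.23 in EloA_WT (limma adjusted p = 0.0167), and Ddx3y, a helicase, 1.06 in CJ7_WT, against 2.33 and 3.98 in EloA_WT (limma adjusted p = 0.0562, or 0.0173 with the replicate block). Uty had 0.977 RPKM in CJ7_WT, against 1.14 and 2.01 in EloA_WT, and Kdm5d 0.115 in CJ7_WT, against 0.110 and 0.217 in EloA_WT. Neither of these was called, and Kdm5d lay between the EloA_WT values. Y genes differed between EloA_WT 1 and 2 as well, with a median of -0.67. Eif2s3y had 2.06 RPKM in Eed_null, 0.509 and 0.421 in EloA_K754M and 2.75 and 3.13 in EloA_K754R. On the X chromosome, Xist, the RNA that coats an inactive X, had 23.5 RPKM in CJ7_WT, against 13.7 and 19.7 in EloA_WT, and its antisense partner Tsix 19.6 in CJ7_WT, against 8.63 and 12.2 in EloA_WT. The sources used here do not name the strand handling, so reads of Xist and Tsix cannot be told apart.

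Imprinted and cell surface genes differed at single members. Imprinted genes had 1 of 29 called higher (3.45%) and 3 lower (10.3%), close to the 2.58% and 12.1% of all genes, with a median of -0.14 that turned to 0.10 with equal column medians and with quantile normalization. Peg10, a retrotransposon-derived placental gene, had 3.32 RPKM in CJ7_WT, against 1.52 and 1.21 in EloA_WT. Mest had 0.467 RPKM in CJ7_WT, against 1.34 and 1.45 in EloA_WT, and Mirg, a microRNA host of the Dlk1-Dio3 cluster, 1.51 in CJ7_WT, against 4.76 and 4.71 in EloA_WT. Meg3 of the same cluster had 9.21 RPKM in CJ7_WT, against 7.19 and 8.85 in EloA_WT, and was not called. H19 was at 1 read in CJ7_WT and 17 in EloA_WT. Of 10 surface and MHC genes 4 were called lower, with a median of -0.56, and 2 lower and 1 higher with a median of -0.10 once the length trend was removed. Among the 4 were Ly6a (Sca-1) with 0.720 RPKM in CJ7_WT, against 3.23 and 4.08 in EloA_WT, and the class I gene H2-K1 with 0.0974 in CJ7_WT, against 0.878 and 0.609 in EloA_WT. Ly6a had 4.96 RPKM in Eed_null and 0.717 to 0.859 in the K754 libraries. H2-K1 and its relatives are near-identical in sequence, so the authors' read assignment could divide reads between them.

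Germ cell genes differed at single members. Of 24 autosomal germ line genes 1 was called higher (4.17%) and 3 lower (12.5%). Of 20 X-linked ones 1 was called higher (5%) and 3 lower (15%). These shares were not far from the 2.58% and 12.1% of all genes. Tex19.1, which guards the germ line against retrotransposons, had 1.70 RPKM in CJ7_WT, against 8.81 and 8.83 in EloA_WT (limma adjusted p = 0.0140), over 306 intron bases. The near-identical X-linked genes Xlr4a, Xlr4b and Xlr4c were called lower, with 0.259, 0.206 and 0.0895 RPKM in CJ7_WT, 0.839, 0.884 and 0.524 in EloA_WT 1, and 0.855, 0.915 and 0.434 in EloA_WT 2, and reads could be shared among them. Brdt, a bromodomain protein of spermatogenesis, had 0.395 RPKM in CJ7_WT, against 0.109 and 0.118 in EloA_WT. Of the p53 targets, 1 of 21 was called higher and 1 lower (4.76% each, against 2.58% and 12.1% of all genes). Bbc3 (Puma), which promotes apoptosis, had 2.00 RPKM in CJ7_WT, against 0.598 and 0.569 in EloA_WT (log2 difference 1.62, limma adjusted p = 0.0313), and Cdkn1a, the cell cycle inhibitor p21, had 5.87 in CJ7_WT, against 5.13 and 3.60 in EloA_WT. Of 13 formative and primed pluripotency genes the rule called 0 and limma with the replicate block 2 higher, with Otx2 at 0.710 RPKM in CJ7_WT, against 0.812 and 0.560 in EloA_WT.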

How the data were processed

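Bru-seq had been done in 10 samples in 5 groups of 2. Values are the authors' deposited intronic RPKM, aligned with BWA to mm9 per the submitters' processing notes. The sources used here do not name the counter, annotation, strand handling or depth denominator. Groups follow the sample titles.

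From these values, log2(RPKM + 0.1) was compared by the rule given above, over genes with a mean of 0.1 RPKM or more. RPKM steps gave back whole reads, with a tolerance of 0.01 reads that widened to at most 0.06 at high values, and 0 of 300 genes jittered by 0.5% passed the same search. Intron bases are the lengths these steps imply. Where they exceeded the merged introns of GENCODE M21, matched by gene ID, reads were divided by the ratio before intervals were taken (scipy 1.17.1). Limma 3.58.1 (R 4.3.3, variance trend) was fitted to 4 groups, two-sided, with 3 residual degrees of freedom. The rule and limma without the replicate block were tested on simulated counts that held no length trend and no replicate effect. Removal of the length trend and the block were not tested in this way.

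Named genes were the 15 largest called differences each way with 0.5 RPKM and 20 reads in the higher group, up to 4 called members of each of 33 lists, the 10 highest shared levels and 14 fixed genes, leaving out unnamed gene models. Other members are given as examples, chosen after their values were seen. The members and lists were chosen with earlier results of these data known. Alternatives changed the offset, filter, scaling, fold, test, EloA_WT library and genes kept. Replicate numbers come from the titles. Over genes, replicate 1 minus replicate 2 correlated between EloA_WT, EloA_K754M and EloA_K754R in all 3 pairs (r = 0.168, 0.193 and 0.151), so the numbers were taken to pair these libraries. Limma was fitted again with the number as a covariate, the pooled column set midway, which assumes equal parts of both libraries. Promoters are from RefSeq. Coordinates of the files' genes were not used.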

Additional observations from a re-analysis of the deposited data

How the results depend on the processing

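Counts of genes called higher in CJ7_WT (380) and lower (1787) moved most with the settings that act on level, scale or threshold. They were 586 higher with an offset of 0.01, 70 and 640 (higher and lower) with an offset of 1, and 205 higher from a mean of 0.5 RPKM. Equal column medians gave 786 and 1117, quantile normalization 842 and 1074, and removal of the intron length trend 785 and 756. A fold of 1.5 gave 1169 and 3583, a fold of 4 gave 55 and 247, and limma with 2-fold together 217 and 1165. Limma with the replicate block, added after the data were seen, gave 971 and 3020, which hold 388 and 1681 of the genes limma called without it. With 1 EloA_WT library left out the counts ranged from 466 to 630 higher and from 1800 to 2384 lower. The share of calls that were higher was 9.86% with an offset of 1. The overall median of -0.20 became -0.0939 with an offset of 1, 0.0361 with equal medians, 0.0416 after quantile normalization and -0.0262 once the length trend was removed. It ranged from -0.26 to -0.15 with 1 EloA_WT library left out. Dropping the filter, asking for 50 reads, leaving out chromosome 11, leaving out genes with repeated values (377 higher), and limma alone kept both counts within 1.5 times. Quantile normalization turned Hnrnpa2b1 to 0.22 and Gm20417 to 1.499, from calls on the lower side, and the cause was not tested. Limma gave 99 of the 127 named genes the same call as the rule, dropped 27 and added Nanog, and with the block these numbers were 117 and 9, with Nanog added. With the length trend removed 26 calls of named genes ended and Nanog was added.

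CJ7_WT is 1 pooled column, so its spread is unknown and no fit can show whether its libraries agree. CJ7_WT has no column per replicate, so the block acts on the spread of the other libraries and CJ7_WT itself cannot be paired. Precision follows the reads behind a gene, which depend on its level and intron length together. Limma without the block had, at an unadjusted p under 0.05, 1343 genes higher and 3808 lower.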

Other observations

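Some genes were past 2-fold from the EloA_WT mean but not called, because the EloA_WT libraries lay far apart, and this held for 302 genes. Slc16a3, a lactate exporter, had 0.559 RPKM in CJ7_WT, against 4.99 and 0.460 in EloA_WT. Pgk1, a glycolytic enzyme on the X chromosome, had 2.73 RPKM in CJ7_WT, against 10.4 and 4.51 in EloA_WT, and Ddit4, an inhibitor of mTORC1 that responds to low oxygen, 5.25 in CJ7_WT, against 17.1 and 8.92 in EloA_WT. EloA_WT 1 was the high library for each of the 3. For Spry4, a feedback inhibitor of FGF signalling, EloA_WT 2 was the high library, with 0.470 RPKM in CJ7_WT, against 0.776 and 2.60 in EloA_WT. Socs3, a feedback inhibitor of LIF signalling, had 0.810 RPKM in CJ7_WT, against 4.70 and 1.99 in EloA_WT, and Ccnd1, encoding cyclin D1, 1.43 in CJ7_WT, against 4.70 and 2.16 in EloA_WT. Each CJ7_WT value lay below the lower EloA_WT value for Socs3, Ccnd1, Pgk1, Ddit4 and Spry4, and for Slc16a3 between the EloA_WT values.

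Interferon and innate sensing genes had 5 of 14 called lower and 0 higher by the rule, with a median of -0.63, and 1 lower and 1 higher with a median of -0.05 once the length trend was removed. Oas1a, an antiviral nucleotide synthase, had 0.633 RPKM in CJ7_WT, against 1.73 and 2.02 in EloA_WT, and stayed called. Bst2 (tetherin) had 0.225 RPKM in CJ7_WT, against 0.794 and 0.839 in EloA_WT, and did not.

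Among the 10 genes with the highest shared levels, Npm1, the nucleolar chaperone nucleophosmin, had 44.5 RPKM in CJ7_WT, against 122.7 and 128.6 in EloA_WT. Eif4a2, an RNA helicase of translation initiation, had 47.6 in CJ7_WT, against 178.6 and 140.0 in EloA_WT. Both were called lower (-1.50 and -1.73), also with the length trend removed (-1.21 and -1.14). Phf17, a chromatin reader, had 34.1 RPKM in CJ7_WT, against 33.2 and 37.4 in EloA_WT. The gene models AY036118 and Gm20417 were also among the 10, over 14 and 564 intron bases.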
